A study of Mus musculus with 6 samples.

Results

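Long intergenic noncoding RNAs (lincRNAs) are transcripts that lie between protein-coding genes and have no long reading frame. The 121 described here are the ones that mouse CD4+ T cells held at a mean of at least 1 CPM (read counts scaled to the total of each library) over 6 libraries. They were taken from a count table of 48440 genes, of which 3763 carry the type lincRNA in the GENCODE M21 annotation and 2972 of those had no read in any library. Host genes of small nucleolar RNAs whose names start with Snhg, and Gas5, were left out, which removed 3 rows above the limit. The members were selected on their mean level over both groups, so their presence and abundance are a description and not a result. Just inside the limit lay Gm26530 at 1.004 CPM and Gm26792 at 1.03 CPM, and just outside it Gm11707 at 0.9984 CPM and Gm14230 at 0.9869 CPM.

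Primary CD4+ T cells, which respond to antigen shown by other cells and direct the response of further lymphocytes, were taken from wild-type mice (spleen and lymph nodes). All of them had first been activated for 3 days on plates coated with antibodies to CD3, a part of the T cell receptor complex, and to the costimulatory receptor CD28, and then grown for 5 days in interleukin 2. The unstimulated group was kept at rest and the stimulated group met the same antibodies again for 4 hours, with 3 libraries each. The series' design text calls them biological replicates and does not say whether they came from separate mice or cultures, so p-values measure only the spread between these libraries.

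Some long noncoding RNAs act as scaffolds: Neat1 builds the nuclear bodies called paraspeckles, and Malat1 collects in nuclear speckles. Others are the precursors from which microRNAs or small nucleolar RNAs are cut, or bind microRNAs and RNA-binding proteins, as Cyrano and Norad do. Others again sit beside a protein-coding gene whose promoter they share or whose activity their locus affects. In lymphocytes a well known example is the precursor of miR-155, which T cell activation induces. Another long noncoding RNA, Morrbid, lies beside the gene for the death factor Bim.

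The libraries held 29897720 to 30252923 counted reads, and 3 reads, the floor used here, corresponded to 0.0992 to 0.1 CPM. Levels below are TMM-normalised CPM, with a group's mean ± SD where no single libraries are given. Each change is the log2 of the stimulated over the unstimulated level, from edgeR's quasi-likelihood test, with p adjusted over 13314 tested genes by Benjamini and Hochberg. A gene is said to have risen or fallen where that p was under 0.05. All 5 genes chosen to check the stimulus rose (Il2, Cd69, Egr2, Nr4a1 and Myc). Of 8 T cell markers, 7 fell and Il2ra rose. The summed level of 8 B cell markers, most of it the antibody heavy chain gene Ighm, was 1472 to 3038 CPM in unstimulated and 685 to 1242 CPM in stimulated libraries. Myeloid markers summed to 109 to 122 CPM at rest and 127 to 161 CPM after stimulation, most of it Ctss, which rose, while Itgam, Adgre1 and Fcgr3 fell. The CD8 T cell markers Cd8a, which rose, and Cd8b1, which fell, summed to 22.1 to 26 CPM at rest and 20.1 to 24.2 CPM after stimulation. Natural killer markers summed to 11.7 to 28.1 CPM and 11.7 to 16.2 CPM, and dendritic markers to 1.46 to 2.41 CPM and 5.55 to 7.46 CPM, with 3 of 4 tested risen. Stromal and endothelial markers, nearly all of it Pecam1, summed to 187 to 203 CPM and 43.8 to 55.4 CPM. Markers of granulocytes and of red cell precursors summed to at most 1.19 and 1.76 CPM in any library. The part of RNA from other cell types in the lincRNA changes was not tested, and in bulk RNA fewer cells of a type and less RNA per cell cannot be told apart.

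Together the 121 lincRNAs took 0.258%, 0.255% and 0.269% of all counted reads in the unstimulated libraries and 0.206%, 0.202% and 0.196% in the stimulated ones. The groups did not overlap, and the mean share was 0.2605% ± 0.0075 at rest against 0.201% ± 0.0051 after stimulation (SD, n = 3). Much of the gap was Neat1, since the shares without it were 0.209% and 0.1939%. All 121 passed the filter on low counts. Of these, 26 (21.5%) rose, 67 (55.4%) fell and 28 (23.1%) did not pass the test. Over all 13314 tested genes 77.5% were called, 38.4% as risen and 39.1% as fallen, so lincRNAs were called about as often as other genes and more of the calls were falls. The median log2 change was -0.71 over the lincRNAs and -0.04 over all tested genes. A change of more than 2-fold (edgeR's glmTreat, adjusted p under 0.05) was called for 12 lincRNAs upward and 39 downward, against 17.4% and 18.2% of all tested genes. The 3 libraries of the groups did not overlap for 94 lincRNAs, 28 higher and 66 lower after stimulation, where 79.8% of all tested genes did not overlap, 39.4% higher and 40.4% lower.

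**Figure D1:**
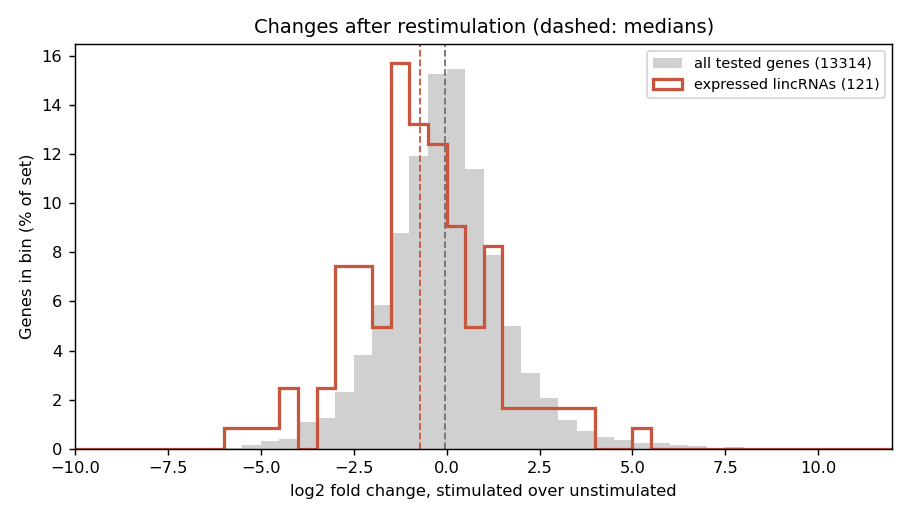
Distribution of log2 fold changes (stimulated over unstimulated, x axis) as the percentage of each set per bin (y axis) for 121 expressed lincRNAs (outline) and 13314 tested genes (grey), with dashed lines at the medians. The lincRNA outline lies to the left of the grey distribution, with its median at -0.71 against -0.04, and keeps a tail of rises that ends at 5.38.

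Of the lincRNAs, 33 were below 1 CPM in stimulated cells and passed the limit only through the unstimulated group, and 5 were below 1 CPM at rest and passed only through the stimulated group. Those members had to differ, so their calls are no support for a direction. The other 83, at or above 1 CPM in each group, are likewise split by the measured change; 22 of them rose and 36 fell. Among the 24 at a mean of 10 CPM or more, 7 rose and 11 fell. Protein-coding genes at the same limit were balanced, with 4475 rises and 4319 falls among 10675 tested and a median of 0.01. The 87 tested lincRNAs under the limit gave 15 rises and 34 falls.

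Annotations differ on what these genes are. RefSeq lists 66 of the 121 as long noncoding RNAs too, of which 16 rose and 39 fell, lists 6 as protein-coding and 4 as pseudogenes, and did not match 45 by identifier or symbol. Exons of 25 members overlap an exon of a protein-coding gene. The sources used here do not state the strand setting of the counting, so reads of such overlapping genes cannot be told apart. Of those 25, 7 rose and 10 fell, and of the 96 without such an overlap 19 rose and 57 fell. Over all tested genes 38.4% rose and 39.1% fell. The counts of these sets include members that passed the limit only through a single group, whose direction was set by the selection. They are therefore no support for a difference in direction between the sets.

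Per length, which is the scale on which genes can be compared, the members ranged widely. The highest levels per kilobase of exon (RPKM, group means) were those of Gm10076 at 327 at rest and 324 after stimulation, AW112010 at 309 and 217, and Gm26917 at 50.0 and 115. Gm10076 is a pseudogene in RefSeq and may share reads with the genes it resembles. Malat1 stood at 43.7 and 33.3 RPKM. Mir155hg moved from 1.06 to 44.2 RPKM, above Malat1 in stimulated cells, while Neat1 went from 23.6 to 3.60 RPKM. The median member was 2550 bases long in its exons, with a range of 269 to 20771, and 25 had a single exon block.

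**Figure D2:**
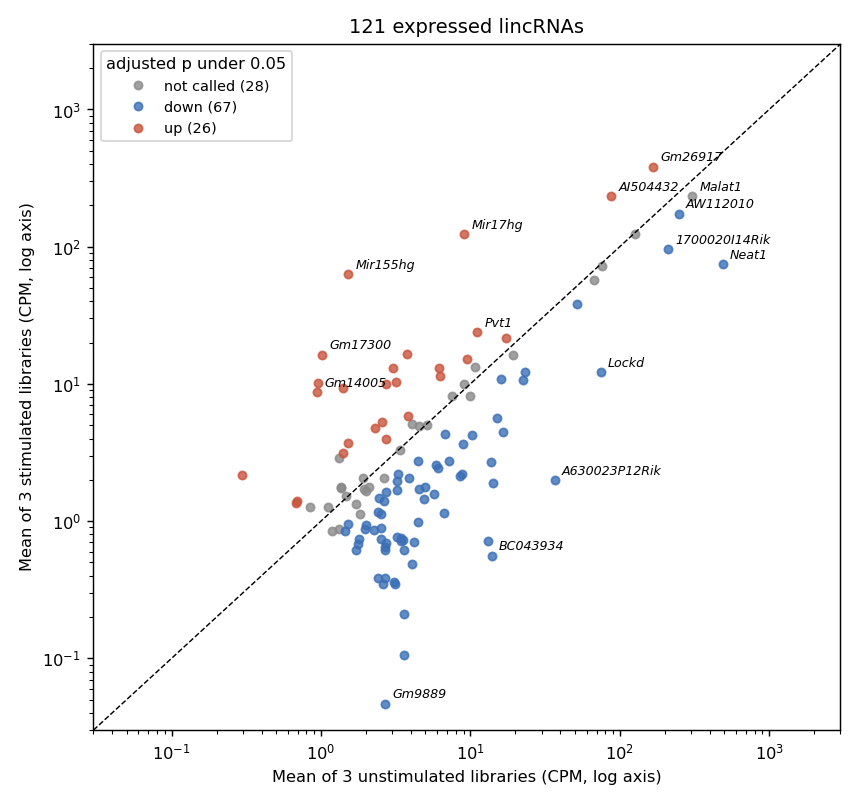
Mean CPM of each of the 121 lincRNAs in the 3 unstimulated (x axis) and 3 stimulated libraries (y axis), both on log axes, coloured by call, with a dashed line of equality. The 67 falls spread furthest from the line at low levels, and Mir155hg lies furthest above it, at 41.7-fold.

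Precursors of microRNAs were among the lincRNAs with the 8 largest rises. Mir155hg (chr16:84703167-84715245, + strand, GRCm38) is the transcript from which miR-155, a microRNA of activated lymphocytes, is cut. It was at 1.78, 1.42 and 1.35 CPM in the unstimulated libraries and at 69.1, 64.0 and 56.8 CPM in the stimulated ones. The groups were far apart, by 41.7-fold, a log2 change of 5.38 ± 0.13 (SE, adjusted p = 5.5e-09 by edgeR). Mir17hg (chr14:115042879-115046727, + strand), the precursor of the miR-17-92 cluster, which promotes lymphocyte growth and survival, was at 11.4, 7.84 and 7.98 CPM at rest. It reached 136, 122 and 112 CPM after stimulation, a log2 change of 3.77 ± 0.16 (SE, edgeR adjusted p = 9.1e-08). All 3 stimulated libraries stood far above the highest unstimulated one.

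The mature microRNAs inside both precursors are printed here because they are what these loci encode and because their seeds, bases 2 to 8 in capitals, group them. Sequences are from RefSeq, 5′ to 3′.
mmu-miR-155-5p: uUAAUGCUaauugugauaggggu
mmu-miR-155-3p: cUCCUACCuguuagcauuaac
mmu-miR-17-5p: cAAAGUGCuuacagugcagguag
mmu-miR-20a-5p: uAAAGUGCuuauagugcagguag
mmu-miR-18a-5p: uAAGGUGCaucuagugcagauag
mmu-miR-19a-3p: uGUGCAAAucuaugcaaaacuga
mmu-miR-19b-3p: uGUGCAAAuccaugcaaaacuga
mmu-miR-92a-3p: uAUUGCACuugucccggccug
The arms of miR-17 and miR-20a share the seed AAAGUGC, and those of miR-19a and miR-19b share GUGCAAA. In all, Mir17hg holds 11 mature sequences with 9 different seeds, and Mir155hg holds 2. The counts are of the long precursors, and the microRNAs themselves were not measured.

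Of the 121 lincRNAs, 8 hold microRNA genes, of which 3 rose and 1 fell, against 38.4% and 39.1% of all tested genes. Rises were thus about as frequent among these hosts as among all genes. Besides Mir155hg and Mir17hg, the riser was Ftx, a transcript of the X chromosome near the Xist locus that carries the genes for miR-421 and miR-374b. Its libraries were at 5.28, 5.63 and 7.95 CPM at rest and at 11.5, 11.3 and 11.4 CPM after stimulation, with no overlap, a log2 change of 0.86 ± 0.16 (SE, edgeR adjusted p = 0.00096). The host that fell was 2900076A07Rik with miR-1839, at -1.74. Mir142hg carries miR-142, which is abundant in blood cells. It was at 10.1, 8.79 and 11 CPM at rest and 7.16, 8.14 and 9.10 CPM after stimulation. The groups overlap, and the log2 change of -0.29 ± 0.14 (SE) did not pass (edgeR adjusted p = 0.078). It passed with library size alone as scaling, with an adjusted p of 0.022, and with the replicate number as a block. The adjusted p ran from 0.019 to 0.31 over 17 alternatives. Its mature arms are shown for contrast with the risers, as they share no seed with any of them.
mmu-miR-142a-5p: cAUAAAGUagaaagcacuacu
mmu-miR-142a-3p: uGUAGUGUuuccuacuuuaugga
The host of let-7a-1, let-7d and let-7f-1, 6720427I07Rik, was at 0.31 on the log2 scale, the host of miR-191 and miR-425, 4833445I07Rik, at 0.36 and that of miR-101a, E130102H24Rik, at -0.25. None of these 3 passed the test.

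Genes of microRNA processing were read from a list of 13, of which 8 rose and 4 fell (6 and 4 with library size alone). Over all tested genes 38.4% rose and 39.1% fell. Drosha and Dicer1, the nucleases that cut the precursors, were each at 0.86, and Xpo5, the exporter of hairpins from the nucleus, was at 1.72. The falls were in Prkra (-2.35), Tnrc6b (-2.78), Tnrc6c (-1.53) and Ago4 (-5.19), the last from 1.42 CPM to 0.0345 CPM, which is under the floor. Dgcr8 (0.61), Tarbp2 (0.54), Ago1 (0.54), Ago2 (0.40) and Ago3 (0.41) were the other rises, and Tnrc6a (0.13) did not pass.

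Several other risers lie beside or within genes with known roles in T cells. Gm14005, named Morrbid in RefSeq (chr2:128178319-128502765, - strand), is a long noncoding RNA whose locus is known to restrain the neighbouring gene Bcl2l11. It was at 0.891, 0.853 and 1.10 CPM at rest and 7.44, 9.87 and 8.82 CPM after stimulation, a log2 change of 3.19 ± 0.19 (SE, edgeR adjusted p = 4.3e-07). Bcl2l11, which encodes Bim and was picked for this comparison after its values were seen, rose too, from 69.5 ± 16.8 to 256 ± 6.06 CPM, a log2 change of 1.88. Both genes of the pair were therefore higher after 4 hours of stimulation. By column totals Gm14005 was just below 1 CPM at rest and passed the limit only through the stimulated group. Its rise is therefore no support for a direction.

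Gdap10 (chr12:32821872-32826904, + strand) lies within the span of Nampt, the gene for the enzyme that limits NAD recycling, on the same strand and 2327 bases after its start. Exons of the annotated genes do not overlap, and whether reads of unspliced Nampt RNA were counted for Gdap10 was not tested. Gdap10 was at 1.21, 1.26 and 0.409 CPM at rest and at 12.3, 9.79 and 8.41 CPM after stimulation (log2 change 3.40 ± 0.34 SE, edgeR adjusted p = 2.5e-05). Unstimulated library 3 was the lowest, and the groups did not overlap. Nampt rose too, from 45.8 ± 7.5 to 420 ± 66.6 CPM, by 3.20.

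AI504432 (chr3:107039504-107054347, + strand) is among the 6 members with the highest counts. It was at 78.5, 96.1 and 87.4 CPM at rest and 237, 241 and 221 CPM after stimulation, and its libraries within each group lay close together. The log2 change was 1.42 ± 0.09 (SE, edgeR adjusted p = 5.4e-07). The next protein-coding start, 3335 bases away, is that of Kcna3, the potassium channel Kv1.3 of effector T cells, which rose by 1.47 from 21.5 to 59.3 CPM.

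Pvt1 (chr15:62037986-62378096, + strand) follows the proto-oncogene Myc at 52595 bases. Its levels were 11.6, 11 and 10.9 CPM at rest and 24.8, 21.9 and 24.6 CPM after stimulation, a log2 change of 1.09 ± 0.09 (SE, edgeR adjusted p = 3.5e-06). Both groups were tight and separate. Myc rose by 3.01, from 167 ± 25.5 to 1340 ± 23.5 CPM, so the shift of Pvt1 was the smaller of the pair.

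Gm17300 (chr4:132351772-132353382, + strand) went from 0.764, 1.01 and 1.29 CPM to 18.1, 16.9 and 13.9 CPM, a log2 change of 3.99. Its exons overlap those of Rcc1, which rose by 1.60, and RefSeq does not match it. The remaining large rises were 1700001L05Rik at 2.85, 2700038G22Rik at 2.73 and 5430416N02Rik at 2.14, none with a function known here. Within 2700038G22Rik lies the gene of a small nucleolar RNA, Snord93. In 1700001L05Rik the rise started from 28 reads in the 3 unstimulated libraries together and ended at 184. This gene was below 1 CPM at rest and passed the limit only through the stimulated group.

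**Figure D3:**
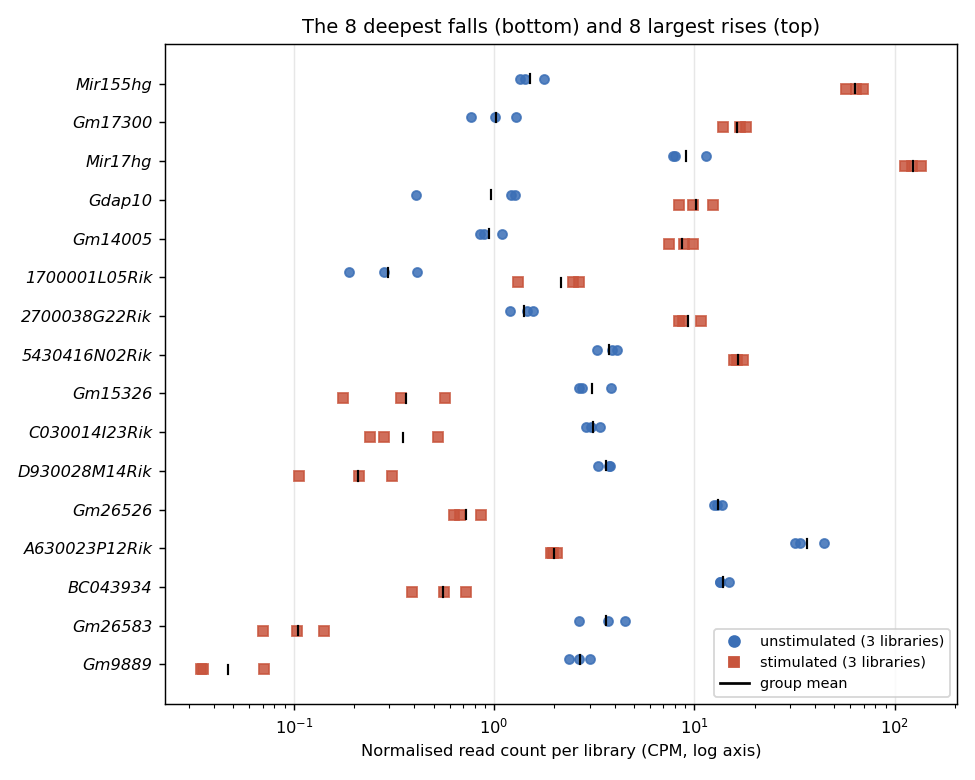
CPM in each library (x axis, log scale) for the 8 lincRNAs with the largest rises and the 8 with the deepest falls, with blue circles for the 3 unstimulated and red squares for the 3 stimulated libraries, and black ticks at the group means. The groups do not overlap in any of the 16, and 7 of the 8 deepest falls end below 1 CPM, A630023P12Rik at 1.93 to 2.06 CPM and Gm9889 lowest at 0.0345 to 0.0709 CPM.

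Neat1 (chr19:5824708-5845478, - strand), the architectural RNA of paraspeckles, held the most reads of all lincRNAs at rest. The unstimulated libraries held 425, 481 and 566 CPM and the stimulated ones 70.8, 73.0 and 80.4 CPM. The lowest unstimulated library stood far above the highest stimulated one. The log2 change was -2.71 ± 0.11 (SE, edgeR adjusted p = 5.3e-08).

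Malat1 (chr19:5795690-5802672, - strand), its neighbour on the chromosome, behaved differently in value. It was at 340, 324 and 252 CPM at rest and 286, 228 and 183 CPM after stimulation, with overlapping groups. The log2 change of -0.39 ± 0.18 (SE) did not pass (edgeR adjusted p = 0.073). Of the 17 alternative analyses 8 called it as fallen, among them library size alone (0.016), DESeq2 (0.042) and a replicate block (0.00012). It was also called without unstimulated library 3, without stimulated library 1, and without both libraries numbered 1 or both numbered 3. A test of the difference between the 2 transcripts was not made.

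Proteins of paraspeckles were read from a list of 14 genes. Of these, 10 rose and 2 fell, against 38.4% and 39.1% of all tested genes, with a median of 0.52. With library size alone the counts were 9 and 4. The core proteins split: Sfpq rose by 0.97 from 355 to 696 CPM and Pspc1 by 0.92, while Nono was at -0.53, from 495 to 342 CPM. Tardbp, which encodes an RNA-binding protein, had the largest rise of the 14, at 1.27. Zc3h6 was the other fall, at -1.76.

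**Figure D4:**
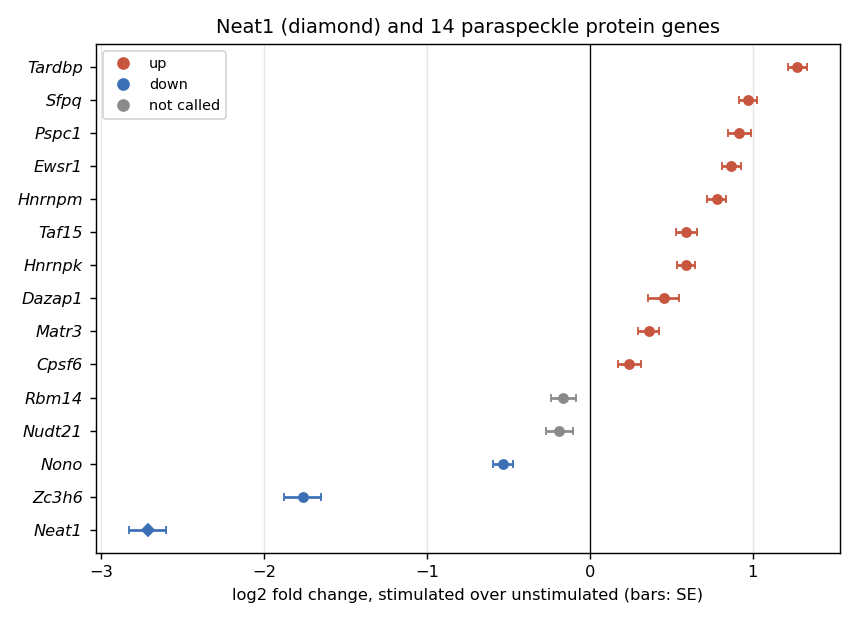
Log2 fold change (x axis, bars are SE) of Neat1 (diamond) and of 14 genes for paraspeckle proteins (circles), coloured by call. Neat1 lies lowest at -2.71, Tardbp highest at 1.27, and 10 of the 14 protein genes lie to the right of 0 as called rises (9 with library size alone).

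Nuclear RNA decay removes many long noncoding RNAs, and a list of 20 of its genes was tested: the exosome, its adaptors and other factors, among them the exonuclease Xrn2 and the RNA methyltransferase Mettl3. Of these, 15 rose and 2 fell, against 38.4% and 39.1% of all tested genes, with a median of 0.99 (14 and 5 with library size alone). The catalytic subunit Dis3 rose by 2.74 from 21.4 to 143 CPM, and the subunits Exosc2 and Exosc1 by 2.19 and 2.04. The falls were Zfc3h1 (-0.67) and Zcchc8 (-0.35), adaptors that bring nuclear RNAs to the exosome. These are levels of messenger RNA, and decay itself was not measured.

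Cyrano, listed as 1700020I14Rik (chr2:119594297-119607502, + strand), is also among the 6 members with the highest counts. It was at 230, 219 and 185 CPM at rest and 102, 94.8 and 89.7 CPM after stimulation. The groups were well separated, and the log2 change was -1.15 ± 0.10 (SE, edgeR adjusted p = 4.1e-06). Cyrano is known for a site of near-complete pairing to miR-7, and a script found it in the reference transcript at positions 2935 to 2959. It is shown with the microRNA, whose seed is in capitals; capitals in the site mark the paired bases.
Cyrano site: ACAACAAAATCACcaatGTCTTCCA
mmu-miR-7a-5p: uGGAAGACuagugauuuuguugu
The site pairs with 21 of the 23 bases of the microRNA, in a block of 13 and a block of 8, with 4 bases between them left unpaired. A match to the seed alone (GTCTTCC) was found in the longest transcript of 25 of the 121 members.

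Norad, listed as 2900097C17Rik (chr2:156388065-156392979, - strand), is known to bind Pumilio proteins through repeats of the element TGTANATA. Its longest transcript of 4915 bases held 11 such elements, 2.238 per kilobase, among them TGTATATA 6 times. The next was Neat1 with 4 in 20771 bases, and 91 of the 121 members held none. Norad rose from 11.8, 9.10 and 7.54 CPM to 17, 15.3 and 13.1 CPM. The groups were separate by a small margin, and the log2 change was 0.68 ± 0.17 (SE, edgeR adjusted p = 0.0056). Without both libraries numbered 2 it did not pass (adjusted p = 0.064, the highest of 17 alternatives). The Pumilio gene Pum2 was at 0.02 and did not pass. In a list of 7 Pumilio and P-body genes 5 rose and 1 fell, Ddx6 at -0.77, against 38.4% and 39.1% of all tested genes.

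AW112010 (chr19:11047612-11055808, - strand) is induced by inflammatory signals in myeloid cells and T cells, and its RNA is reported to be translated. Its levels were 305, 207 and 234 CPM at rest and 194, 148 and 182 CPM after stimulation. The groups did not overlap but the first unstimulated library stood well above the others. The log2 change of -0.51 ± 0.16 (SE) passed (edgeR adjusted p = 0.017), and it did not pass without the low-count filter (0.064), without the second stimulated library (0.057) or without both libraries numbered 3 (0.1), the highest of its 17 alternatives. Epb41l4aos, also among the highest per length, rose by 0.32 (edgeR adjusted p = 0.016), a call lost with library size alone (0.16), without stimulated library 3 and without both libraries numbered 2, with adjusted p up to 0.18.

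The deepest falls were of lincRNAs at low or middling level at rest. A630023P12Rik (chr5:110514923-110525980, + strand) held the most reads of them, at 31.8, 33.7 and 44.4 CPM at rest and 2.06, 1.97 and 1.93 CPM after stimulation. The groups lay far apart and the stimulated libraries close together, with a log2 change of -4.20 ± 0.16 (SE, edgeR adjusted p = 3.1e-08). BC043934 (chr9:96435783-96438138, - strand) went from 13.4, 14.9 and 13.4 CPM to 0.390, 0.562 and 0.724 CPM, by -4.63, and Gm26526 by -4.17 from 13.1 ± 0.59 to 0.722 ± 0.12 CPM.

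Gm9889 (chr3:115715150-115716728, + strand) had the deepest fall, from 2.64, 2.37 and 3.02 CPM to 0.0709, 0.0351 and 0.0345 CPM. That is 254 reads in the unstimulated libraries together and 4 in the stimulated ones, under the floor of 3 reads in each, so the fitted log2 change of -5.72 (edgeR adjusted p = 6.7e-07) rests on few reads. It starts 78 bases from S1pr1 and points the other way. S1pr1, the receptor that lets lymphocytes leave lymph nodes, fell by 5.29, from 597 ± 30.0 to 15.3 ± 1.84 CPM. Exons of the pair do not overlap. The other deep falls were Gm26583 (-5.05), D930028M14Rik (-4.08), C030014I23Rik (-3.14) and Gm15326 (-3.07), each at 2 to 16 reads in a stimulated library. Of the deepest falls, all but A630023P12Rik were below 1 CPM in stimulated cells and passed the limit only through the unstimulated group.

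Lockd (chr6:134929092-134956798, + strand) was picked after its values were seen, as the highest in reads after Neat1 of the lincRNAs called as fallen by more than 2-fold. It was at 64.1, 74.8 and 85.0 CPM at rest and 10.3, 12.1 and 13.9 CPM after stimulation, with no overlap (log2 change -2.62 ± 0.14 SE, edgeR adjusted p = 2.5e-07). It lies 8691 bases from Cdkn1b, the gene for the cell cycle inhibitor p27 for which it is named. Cdkn1b fell beside it by 4.39, from 343 ± 11 to 16.3 ± 2.30 CPM.

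For 91 members the nearest protein-coding start within 100 kilobases belonged to a tested gene. In 59 of these pairs both genes were called: 14 pairs rose together, 30 fell together and 15 moved in opposite directions (13, 33 and 13 with library size alone). Of the 91 neighbours 36 rose and 39 fell, against 38.4% and 39.1% of all tested genes. Some members of these pairs passed the limit only through a single group, so their direction was set by the selection. Counts of pairs without those members were not made. Across the 91 pairs the log2 changes had a Pearson correlation of 0.43 and a Spearman correlation of 0.451, given as a description, since neighbours share libraries and chromatin and are not independent. Among 28 pairs that start within 5 kilobases of each other on opposite strands, both genes were called in 18. Of these, 5 rose together, 8 fell together and 5 were opposite. The genes of such pairs were not required to point apart. For the 18 such pairs without an exon overlap the Pearson correlation was 0.763 and the Spearman correlation 0.531, and Gm9889 with S1pr1 is the most extreme point. Gm9889 is a member that passed the limit only through the unstimulated group.

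**Figure D5:**
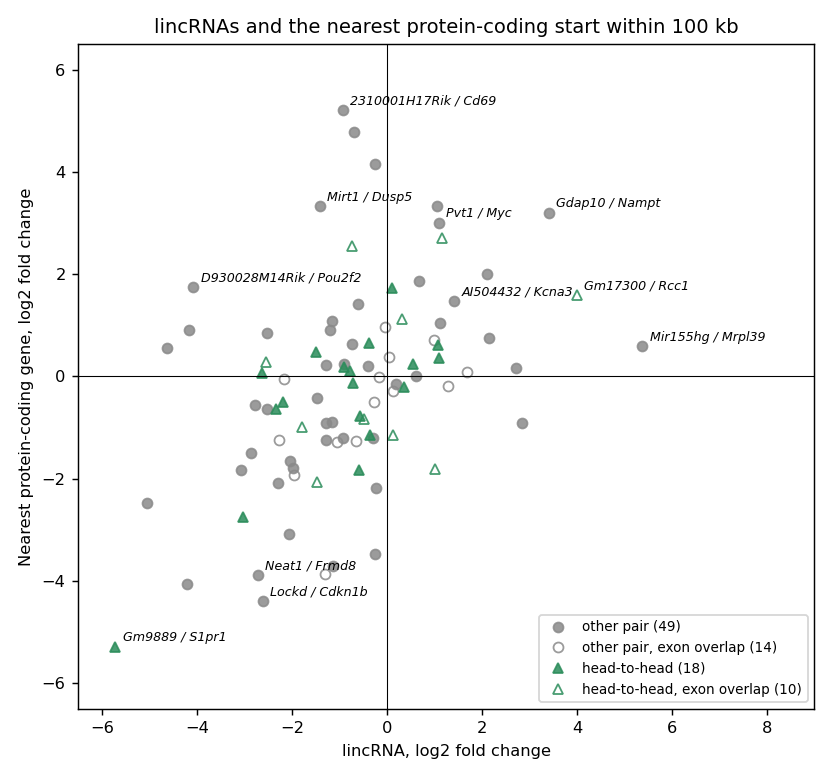
Log2 fold change of 91 lincRNAs (x axis) against that of the nearest protein-coding gene within 100 kilobases (y axis). Triangles mark pairs that start within 5 kilobases on opposite strands, and open symbols mark lincRNAs whose exons overlap those of a protein-coding gene. Of the 59 pairs with both genes called, 14 lie at the upper right, 30 at the lower left and 15 in the other corners, and 2310001H17Rik with Cd69 and Mirt1 with Dusp5 are among the pairs of opposite direction.

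The opposite pairs include well known genes of the T cell response. 2310001H17Rik was at 22.1, 24.4 and 23.3 CPM at rest and 13.4, 12.6 and 10.8 CPM after stimulation, a log2 change of -0.92, while Cd69, an early activation marker 36711 bases away, rose by 5.22. Mirt1 (-1.41) lies 64313 bases from Dusp5, a phosphatase of the ERK kinases, which rose by 3.33. Inside the span of Mirt1, on the other strand and with overlapping exons, lies the member 4833407H14Rik, which rose by 1.06. D930028M14Rik (-4.08) lies within the span of Pou2f2, on the other strand and 27269 bases from its start; Pou2f2 rose by 1.75 and encodes the transcription factor Oct-2, and BC043934 lies 40537 bases from Rnf7, which rose by 0.55. Cyrano (-1.15) and Nusap1 (-3.70), Neat1 and Frmd8 (-3.88), A630023P12Rik and Galnt9 (-4.06), Gm26583 and Nudt14 (-2.47), and Gm15326 and Map3k1 (-1.84) fell together. Mir155hg and Mrpl39 (0.59), 5430416N02Rik and Sec31a (0.74), and Norad and Epb41l1 (1.86) rose together, and 1700001L05Rik rose beside Arfgap3, which was at -0.91.

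Shared promoter windows were looked up for a few pairs that start close together and point apart, and those found are shown. In each of them the genes on either side differed in their calls. No window with both starts was found for Gm9889 with S1pr1 or 5031425E22Rik with Kmt2e, pairs that fell together. The same held for 5033430I15Rik with Atxn1, which rose together. Gm5113 fell from 2.13, 3.16 and 2.23 CPM to 0.780, 1.05 and 0.827 CPM (log2 change -1.50, edgeR adjusted p = 0.00054), while Zfp146 rose by 0.48. Gm7160 was at 1.97, 1.90 and 1.85 CPM at rest and 1.91, 2.04 and 2.21 CPM after stimulation (0.10, edgeR adjusted p = 0.62), while Zcchc2 rose by 1.72. In each window, read from RefSeq on GRCm38 coordinates, capitals span from the start of the lincRNA to that of the protein-coding gene, 134 bases for the first, chr7:30169692-30169991 (- strand), and 124 for the second, chr1:105990156-105990455 (+ strand).
Gm5113 and Zfp146: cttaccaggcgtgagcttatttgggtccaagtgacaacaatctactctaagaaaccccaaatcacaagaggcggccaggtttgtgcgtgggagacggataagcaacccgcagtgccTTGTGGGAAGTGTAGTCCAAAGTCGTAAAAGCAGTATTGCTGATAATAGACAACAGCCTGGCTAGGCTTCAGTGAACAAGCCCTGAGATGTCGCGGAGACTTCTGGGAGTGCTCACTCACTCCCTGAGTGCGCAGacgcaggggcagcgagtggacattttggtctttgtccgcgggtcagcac
Gm7160 and Zcchc2: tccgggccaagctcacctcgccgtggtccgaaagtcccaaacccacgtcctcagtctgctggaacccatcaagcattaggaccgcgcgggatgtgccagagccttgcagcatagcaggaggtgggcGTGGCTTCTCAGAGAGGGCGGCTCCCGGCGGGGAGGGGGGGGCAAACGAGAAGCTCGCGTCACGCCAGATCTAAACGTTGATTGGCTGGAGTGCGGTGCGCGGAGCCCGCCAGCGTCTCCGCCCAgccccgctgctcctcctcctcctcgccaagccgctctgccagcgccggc
The first window is 53.3% G and C with 13 CpG dinucleotides, and the second 67.7% with 28.

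For 40 members a RefSeq promoter window, 250 bases before to 50 after the start, lay within 100 bases of the GENCODE start. 6 of them had risen and 25 had fallen. The letters CCACCC, the core bound by KLF factors, were in 17 of the 40 on either strand, against 31.5% of all 32851 windows. They were in 13 of the 25 that fell and in 2 of the 6 that rose. Some of these members, such as Lppos and F730311O21Rik, passed the limit only through a single group, so their direction was set by the selection. The split by direction is therefore a description only, and counts without those members were not made. The letters TGANTCA of AP-1 were in 4 of the 40, against 7.8% of all windows, GGAAAA of NFAT in 6 against 23.4%, CACGTG of the E-box that Myc binds in 4 against 7.2%, and the NF-kB motif in 1 against 1.6%. TGACGTCA of CREB was in 2 against 1.8%, and GCGNGGGCG of EGR factors in 2 against 5.6%. These are matches of letters only.

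Lists of other partners gave mixed counts, to be read beside the 38.4% of all tested genes that rose and the 39.1% that fell. Of 12 Polycomb and chromatin genes, which several long noncoding RNAs are reported to bind, 5 rose and 6 fell (5 and 7 with library size alone), with Eed at 1.34, Jarid2 at 1.57 and Ezh1 at -1.95. Of 13 genes for partners of Xist and X inactivation 6 rose and 4 fell (6 and 5 with library size alone), with Spen at 1.11, Hnrnpu at 1.03 and Lbr at -2.22. Xist itself had 3 reads over all 6 libraries, Meg3 had 1 and H19 had 2, so none of these well known RNAs is among the 121. Jpx with 151, Trp53cor1 with 93 and Miat with 12 reads also lay under the limit.

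A last group holds abundant rows whose type differs between annotations or that lie by ribosomal RNA. Gm26917 (chr17:39843013-39846341, + strand) was at 158, 139 and 203 CPM at rest and 375, 419 and 354 CPM after stimulation, a rise of 1.2 ± 0.14 (SE, edgeR adjusted p = 5.7e-05). It took 5.72% to 7.98% of all reads of the 121 at rest and 17% to 19.8% after stimulation. Close beside it on the same strand lies Gm42418, which RefSeq lists as a pseudogene of 18S ribosomal RNA. Gm42418 was at 38.8, 51.4 and 65.5 CPM at rest and 37.2, 38.5 and 39.0 CPM after stimulation, with a log2 change of -0.44 (edgeR adjusted p = 0.042), the other way from Gm26917. The part of ribosomal RNA in the counts of either was not tested. Without both, the 121 would hold 0.235% to 0.241% of counts at rest and 0.158% to 0.167% after stimulation. Also without a call were Gm10076 (-0.01) and 1810058I24Rik (-0.07), which RefSeq lists as protein-coding. AU020206, a long noncoding RNA in RefSeq too, was at -0.23 and did not pass (edgeR adjusted p = 0.34).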

How the data were processed

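RNA of 6 libraries of mouse CD4+ T cells, 3 unstimulated and 3 stimulated, was measured by sequencing. The authors deposited 1 table of raw read counts with a row for each Ensembl identifier. Total RNA was purified on columns and turned into TruSeq libraries, per the labels' protocols. The tools STAR 2.5.2a, HTSeq and DESeq2 and the build GRCm38 are named, with no role, per the submitters' processing notes. Which annotation release and strand setting the counting used is not given in the sources used here.

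Names, types and coordinates came from GENCODE M21, which named 48058 rows and left 382 without a name. Of all rows, 26036 had no read. The members and gene lists were chosen with earlier results of these data known, and some genes of the lists are not reported here. Counts were tested with edgeR 4.0.16 (R 4.3.3): TMM scaling, filterByExpr on the group, robust quasi-likelihood fits with the group as the single term (two-sided), Benjamini-Hochberg adjustment over the 13314 genes left, which held 99.9% of counts. CPM used TMM-scaled library sizes, except for the limit of 1 CPM, which used column totals. Counting floors cover counting error only. RPKM divided CPM by the length of merged exons.

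Members were named by rule: the 8 largest rises and 8 largest falls without overlap, the 6 with the highest mean CPM, the 4 highest not called, the 2 just inside and the 2 rows just outside the limit, well known long noncoding RNAs, and called neighbours of the 16. Other members named were chosen after their values were seen.

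Alternatives were RLE scaling, library size alone, no filter, 1 CPM in 3 libraries, DESeq2 1.42.0, limma-voom 3.58.1, a block for the replicate number, omission of libraries in turn, an adjusted p of 0.01, library sizes that leave out the 20 most abundant genes, and other limits for members. Libraries of a group differed by more than counting noise (dispersion index of pairs 9.41 to 37.6, against about 1 for noise alone). On simulated data of 13314 genes, the fit recovered 65% of 100 genes changed by 1.5-fold and 94% of 100 changed by 2-fold. Among its 162 calls were 3 unchanged genes. No other genes were changed in the simulation, while 77.5% of all tested genes were called in the data. Its rates therefore need not hold for this comparison.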

Additional observations from a re-analysis of the deposited data

How the results depend on the processing

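No call of a named member reversed in any of the 17 alternatives, and 23 of the 27 called ones kept their call in all of them; the exceptions were Norad, AW112010, Epb41l4aos and Gm26530, the last lost without stimulated library 1 or 2, or without both libraries numbered 1 or 2. The largest shift of a called named member was 0.46 on the log2 scale. For the counts of 26 rises and 67 falls, RLE scaling gave 26 and 66, library size alone 24 and 70, no filter 26 and 63, DESeq2 26 and 67 and limma-voom 26 and 64. Library size alone lowered the median change of all genes by 0.139 on the log2 scale. Leaving out libraries gave 20 to 27 rises and 54 to 66 falls. Other limits moved the counts with the number of members: a mean of 2 CPM left 81 members with 43 falls, 1 CPM in each group left 83 with 36 falls, and members that RefSeq also lists as long noncoding, a choice made after seeing the data, gave 16 rises and 39 falls. The summed share was 0.209% and 0.1939% without Neat1. With the replicate number as a block there were 28 rises and 71 falls, with Malat1 (adjusted p = 0.00012, the lowest of its 17 alternatives, which reach 0.27) and Mir142hg (0.036) called as fallen. Deviations of same-numbered libraries correlated at 0.361, 0.084 and 0.38, and each library correlated best with its own number. The labels do not say that a number marks a single mouse, so the main fit took no pairing. Whether the samples are paired stays unknown. At these depths members near 1 CPM rest on about 30 reads a library, and groups of 3 limit the precision.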

Other observations

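Some members with no place above were chosen after their values were seen and are given as values. Dubr, a long noncoding RNA known from muscle differentiation, was at 18, 15.6 and 16.1 CPM in unstimulated and 4.36, 3.55 and 5.44 CPM in stimulated libraries, a log2 change of -1.90 (edgeR adjusted p = 4.4e-06). 4632404H12Rik went the other way, from 6.81, 5.94 and 5.72 CPM to 12.9, 14 and 12.5 CPM, a change of 1.09. D930016D06Rik rose by 2.09, Gm16907 by 1.87 and Gm17322 by 1.69, and exons of the last 2 overlap those of protein-coding genes. RefSeq lists D930016D06Rik as protein-coding, under the name Thoc2l, and Gm17322 as a pseudogene. 5031425E22Rik fell by 0.58, from 16.2 to 10.8 CPM in the mean. In 3 pairs of members the spans and exons overlap on opposite strands: Mirt1 with 4833407H14Rik, and AI480526 with both Gm38102 and 4932422M17Rik.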
